A study of Mus musculus with 4 samples.

Results

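The enzymes that make, convert and break down ceramide were followed in peritoneal macrophages of mice with and without a myeloid deletion of Dnmt1, the methyltransferase that copies DNA methylation onto newly made strands. The set holds 10 genes taken by symbol for their textbook roles in ceramide and sphingomyelin metabolism: Sptlc1, Sptlc2, Degs1, Cers2, Cers5, Cers6, Ugcg, Sgms1, Smpd1 and Asah1. All 10 were found among the 13834 genes of the RNA sequencing table, and all 10 were among the 12542 genes that passed a filter on low counts and were tested. The table held 2 samples from Dnmt1fl/fl mice and 2 from Dnmt1KO mice. Mice of both genotypes carried the floxed Dnmt1 allele, and Dnmt1KO mice also carried Cre recombinase driven by the LysM promoter, so that the deletion reached only cells in which this promoter had been active. The study's methods describe peritoneal macrophages of 10-week-old animals drawn out by thioglycolate broth given 3 days before collection. The same methods describe culture of these cells in medium with fetal bovine serum, and do not say whether the sequenced cells were cultured. Counts summed to 20228071 and 24198943 in Dnmt1fl/fl replicates 1 and 2, and to 21767795 and 22611219 in Dnmt1KO replicates 1 and 2. Nothing in the labels says that replicates of a genotype came from separate animals or cultures, so the p-values measure only the spread between these samples, which may be technical.

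Ceramide is the hub of sphingolipid metabolism. It is built in the endoplasmic reticulum from serine and palmitoyl-CoA, and is then turned into sphingomyelin or glycosphingolipids in the Golgi, or hydrolysed to sphingosine. In macrophages, lysosomal sphingomyelinase and ceramidase break down the sphingolipids of engulfed membranes, and sphingomyelin binds cholesterol in the plasma membrane.

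Dnmt1, the targeted gene, was read first as a check of the labels. Its level in CPM (counts scaled to a common library size with TMM) was 86.6 and 67.0 in the Dnmt1fl/fl samples and 37.0 and 42.7 in the Dnmt1KO samples. Both Dnmt1KO samples lay below both Dnmt1fl/fl samples, as the labels say. The log2 fold change, Dnmt1KO against Dnmt1fl/fl throughout, was −0.95 ± 0.24 (SE), with an unadjusted p of 0.00839 and, with Benjamini-Hochberg adjustment over the 12542 genes, an adjusted p of 1.00 in edgeR; without Dnmt1KO replicate 1 it was −0.85. The value counts reads over the whole gene and not over the deleted exons alone.

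Dnmt1KO replicate 1 stood apart from the other libraries. The median absolute log2 difference over the tested genes was 0.21 between the Dnmt1fl/fl samples and 0.48 between the Dnmt1KO samples. Dnmt1KO replicate 1 held the highest of the 4 values in 38.8% of the tested genes and the lowest in 39.6%. Levels also moved with gene length, and not in this library alone. Against the mean of the 4 samples, its median log2 deviation was 0.28 for the genes in the lowest quartile of exon length and −0.26 for those in the highest. Dnmt1fl/fl replicate 1 gave −0.13 and 0.14, Dnmt1KO replicate 2 −0.13 and 0.14, and Dnmt1fl/fl replicate 2 0.02 and −0.01. Because all deviations are taken from the same mean, a trend in any library imposes a part of the opposite trend on the others. Across genes, Spearman's correlation of the deviation with length was 0.41 and −0.08 in Dnmt1fl/fl replicates 1 and 2 and −0.40 and 0.34 in Dnmt1KO replicates 1 and 2; genes are not independent replicates. The fold changes below are given with all 4 samples and without Dnmt1KO replicate 1.

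Markers of other cell types set the same library apart. Of 14 neutrophil markers, 10 were listed, and all 10 were highest in Dnmt1KO replicate 1; their levels summed to 240 and 338 CPM in the Dnmt1fl/fl samples and to 933 and 234 CPM in Dnmt1KO replicates 1 and 2. Csf3r, which held the most CPM of these markers on average, varied less, at 158, 137, 169 and 159 CPM in the same order. S100a9, which encodes a subunit of calprotectin, had 5.55, 60.5, 320 and 8.35 CPM. The granule genes Ngp, Camp, Elane and Mpo were not in the table, which lists only genes above 0 in every sample. All 10 B cell markers were listed and all 10 were lowest in Dnmt1KO replicate 1, with sums of 341, 507, 133 and 563 CPM. Ighm, which held the most CPM of this list, had 196, 286, 89.6 and 309 CPM.

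Macrophage markers were found in all 4 samples, but their levels varied. Of the 10, 3 were highest and 5 were lowest in Dnmt1KO replicate 1. All 10 macrophage markers were listed, and their levels summed to 36041 and 35000 CPM in the Dnmt1fl/fl samples and to 18442 and 21937 CPM in the Dnmt1KO samples. Most of this sum was Lyz2, the gene whose promoter drives the Cre, with 29531, 28588, 11351 and 15745 CPM. Its log2 fold change was −1.10 ± 0.32. Only Dnmt1KO mice carried this Cre, and what part it has in the Lyz2 values was not tested. Without Lyz2, the 9 other markers summed to 6510, 6412, 7090 and 6192 CPM. Large resident peritoneal macrophage markers were all listed, 8 of 8, and 7 of them were lowest in Dnmt1KO replicate 1. Their sum was still highest there, at 775, 787, 982 and 608 CPM, through Cd9 at 495, 485, 856 and 341 CPM. Of the 8, Timd4 and Icam2 were lower in both Dnmt1KO samples and 0 were higher, against 8.56% and 8.14% of all tested genes. Timd4 had 91.4, 140, 67.6 and 78.8 CPM and Icam2 41.4, 72.2, 28.4 and 40.5 CPM in the same order. The median log2 fold change of the list was −0.42. Recruited monocyte markers, 6 of 6 listed, summed to 1148, 1560, 1176 and 1346 CPM. Ccr2 held the most CPM on average, at 498, 682, 376 and 594 CPM, but Chil3 was higher in Dnmt1KO replicate 1, at 493 CPM. The sums of the T cell, dendritic cell, mast cell, eosinophil and mesothelial cell markers were lower, between 6.40 and 66.6 CPM in any sample; Ms4a2 of the mast cell list and Epx, Prg2 and Ear1 of the eosinophil list were not in the table. In bulk samples, fewer cells of a type and less RNA per cell cannot be told apart. What part the markers, gene length or Dnmt1KO replicate 1 have in the values below was not tested.

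**Figure D1:**
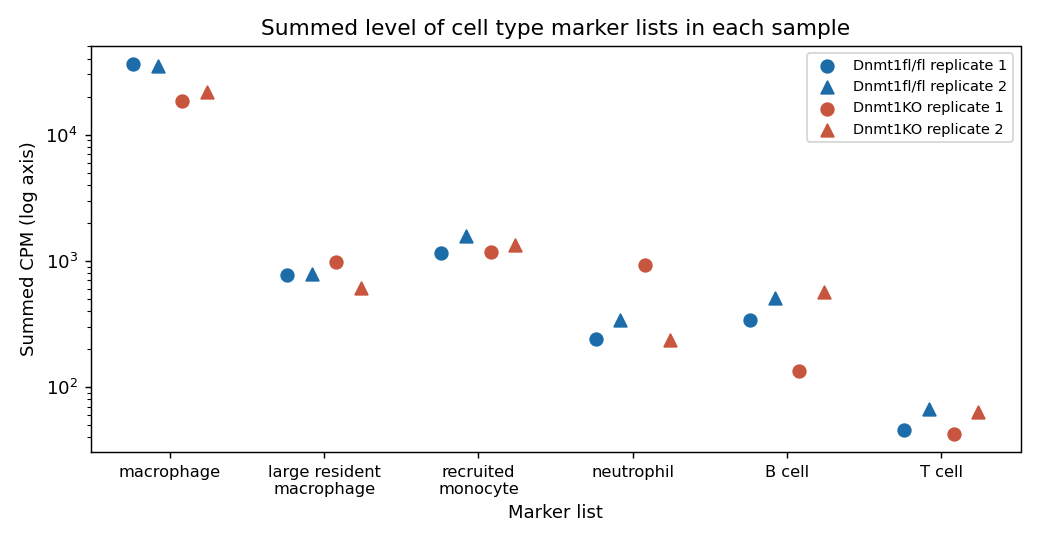
Summed level (CPM, log axis) of 6 cell type marker lists in each of the 4 samples, with colour for genotype and symbol for replicate number. The neutrophil sum is highest in Dnmt1KO replicate 1, at 933 CPM, and the B cell sum is lowest there, at 133 CPM.

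None of the 10 enzymes passed the threshold of adjusted p under 0.05 in edgeR, and none had an unadjusted p under 0.05, which ran from 0.170 to 0.841. DESeq2 and limma-voom called 0 of the 10 as well, at adjusted and at unadjusted p under 0.05. In the whole table edgeR called 0 of 12542 genes (0%) at adjusted p under 0.05 and 35 (0.279%) at unadjusted p under 0.05, limma-voom called 0, and DESeq2 called 1, Pagr1a, which is named here after its values were seen. The median log2 fold change was 0.00 over the 10 enzymes and 0.00 over all genes tested, with medians of the absolute value of 0.16 and 0.16. Standard errors of the 10 fold changes lay between 0.21 and 0.30. Both Dnmt1KO samples lay above both Dnmt1fl/fl samples for 2 of 10 enzymes, Sptlc1 and Smpd1, against 8.14% of all tested genes, and below for 0 of 10, against 8.56%; with library totals alone, Cers2 was below as well. Without Dnmt1KO replicate 1, the remaining Dnmt1KO sample lay above both Dnmt1fl/fl samples for 5 of 10 enzymes, against 32.6% of all tested genes, and below both for 3, against 32%. Without Dnmt1KO replicate 2, these shares of all tested genes were 41% and 41.9%. With 2 samples against 2, an exact permutation test of a single gene cannot go below p = 0.333. Dnmt1KO replicate 1 held the highest value for 5 enzymes and the lowest for 3.

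Serine palmitoyltransferase, the rate-limiting step of the pathway, joins serine to palmitoyl-CoA and needs a subunit from each of Sptlc1 and Sptlc2. Sptlc1 (ENSMUSG00000021468, minus strand, GRCm38 chr13:53332748-53377397) had 58.2 and 60.1 CPM in the Dnmt1fl/fl samples and 72.6 and 63.3 CPM in the Dnmt1KO samples. Both Dnmt1KO samples were higher, replicate 2 by little. The log2 fold change was 0.20 ± 0.21 (SE; edgeR adjusted p = 1.00) and 0.09 without Dnmt1KO replicate 1. Sptlc2 (minus strand, chr12:87305058-87388355), the subunit with the catalytic lysine, had 133 and 139 CPM in the Dnmt1fl/fl samples and 182 and 127 CPM in the Dnmt1KO samples. Here the Dnmt1KO samples lay on either side of the Dnmt1fl/fl samples. Its log2 fold change of 0.18 ± 0.26 became −0.10 without Dnmt1KO replicate 1, and was 0.33 with the length trend removed and 0.095 with library totals alone. Per kilobase of exon, the subunits were close: the ratio of Sptlc1 to Sptlc2 was 1.00 and 0.99 in the Dnmt1fl/fl samples and 0.91 and 1.14 in the Dnmt1KO samples.

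Ceramide synthases attach a fatty acyl chain to the sphingoid base, and each prefers its own chain lengths. Cers2 (plus strand, chr3:95314791-95323599), which prefers very long chains, had 239 and 230 CPM in the Dnmt1fl/fl samples and 235 and 210 CPM in the Dnmt1KO samples. The genotypes overlapped, and the log2 fold change was −0.08 ± 0.22, or −0.16 without Dnmt1KO replicate 1. Exons of 6330562C20Rik and Setdb1 on the other strand overlap 5.96% of the Cers2 exons. Cers5 (minus strand, chr15:99734881-99772885), which prefers palmitoyl chains, had 76.5 and 77.6 CPM in the Dnmt1fl/fl samples and 62.9 and 85.0 CPM in the Dnmt1KO samples. Its Dnmt1KO values bracketed the Dnmt1fl/fl values, and the log2 fold change was −0.06 ± 0.24, or 0.14 without Dnmt1KO replicate 1.

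Cers6 (plus strand, chr2:68861441-69114282), which also makes palmitoyl ceramide, varied most between the Dnmt1KO samples. It had 195 and 190 CPM in the Dnmt1fl/fl samples, 122 CPM in Dnmt1KO replicate 1 and 204 CPM in Dnmt1KO replicate 2. One Dnmt1KO sample was thus the lowest of the 4 and the other the highest. A log2 fold change of −0.24 ± 0.30 was found, which became 0.08 without Dnmt1KO replicate 1 and was −0.65 without Dnmt1KO replicate 2. The Dnmt1KO samples differed by −0.74 on the log2 scale, replicate 1 minus replicate 2, and the Dnmt1fl/fl samples by 0.04.

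The makeup of the ceramide synthases was computed per kilobase of exon. Of their summed level, Cers2 took 59.7% and 59.0% in the Dnmt1fl/fl samples and 66.7% and 54.7% in the Dnmt1KO samples. Cers6 took 20.2% and 20.2%, then 14.4% and 22.0%, and Cers5 19.8% and 20.7%, then 18.6% and 23.0%. Cers2 was the most abundant of them in every sample, and Cers4 took at most 0.321%. Cers1 and Cers3 were not in the table. The shares of both genotypes overlapped for Cers2, Cers5 and Cers6.

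Degs1 (minus strand, chr1:182275772-182282804) desaturates dihydroceramide, the last step that makes ceramide. It had 237 and 248 CPM in the Dnmt1fl/fl samples and 291 and 213 CPM in the Dnmt1KO samples. The Dnmt1KO values lay above and below both Dnmt1fl/fl values. Its log2 fold change was 0.05 ± 0.25, but −0.03 when libraries were scaled by their totals alone and −0.19 without Dnmt1KO replicate 1.

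From ceramide the pathway branches. Ugcg (plus strand, chr4:59189257-59222833), glucosylceramide synthase, makes the first glycosphingolipid and had 49.6 and 62.4 CPM in the Dnmt1fl/fl samples and 57.7 and 50.2 CPM in the Dnmt1KO samples. The genotypes overlapped, since both Dnmt1KO values lay between the Dnmt1fl/fl values, and the log2 fold change was −0.05 ± 0.23, −0.16 without Dnmt1KO replicate 1 and 0.03 with the length trend removed. Sgms1 (minus strand, chr19:32122727-32389714), the Golgi sphingomyelin synthase, had 83.9 and 100.03 CPM in the Dnmt1fl/fl samples and 114 and 95.1 CPM in the Dnmt1KO samples. The genotypes overlapped, with the highest value in Dnmt1KO replicate 1. Its log2 fold change was 0.18 ± 0.23 and 0.05 without Dnmt1KO replicate 1; it was 0.34 with the length trend removed and 0.10 with library totals alone.

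Smpd1 (ENSMUSG00000037049, plus strand, chr7:105554360-105558389) encodes acid sphingomyelinase, which cuts sphingomyelin to ceramide in the lysosome. It had 31.2 and 31.5 CPM in the Dnmt1fl/fl samples and 45.9 and 34.6 CPM in the Dnmt1KO samples. Both Dnmt1KO samples were higher, replicate 1 by more. Its log2 fold change of 0.36 ± 0.23 was the largest in size of the 10; edgeR gave an unadjusted p of 0.170 and an adjusted p of 1.00. It was 0.14 without Dnmt1KO replicate 1 and 0.55 without Dnmt1KO replicate 2. Asah1 (minus strand, chr8:41340197-41374773) encodes acid ceramidase, the lysosomal enzyme that splits ceramide into sphingosine and a fatty acid. It had 594 and 519 CPM in the Dnmt1fl/fl samples and 413 and 597 CPM in the Dnmt1KO samples. One Dnmt1KO sample was the lowest of the 4 and the other the highest. Its log2 fold change was −0.14 ± 0.28, became 0.10 without Dnmt1KO replicate 1 and was −0.43 without Dnmt1KO replicate 2.

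The ratio of Asah1 to Smpd1 per kilobase of exon, between these consecutive lysosomal steps, was 18.7 and 16.2 in the Dnmt1fl/fl samples and 8.86 and 17.0 in the Dnmt1KO samples. Dnmt1KO replicate 1 alone was low, and Dnmt1KO replicate 2 lay between the Dnmt1fl/fl values.

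**Figure D2:**
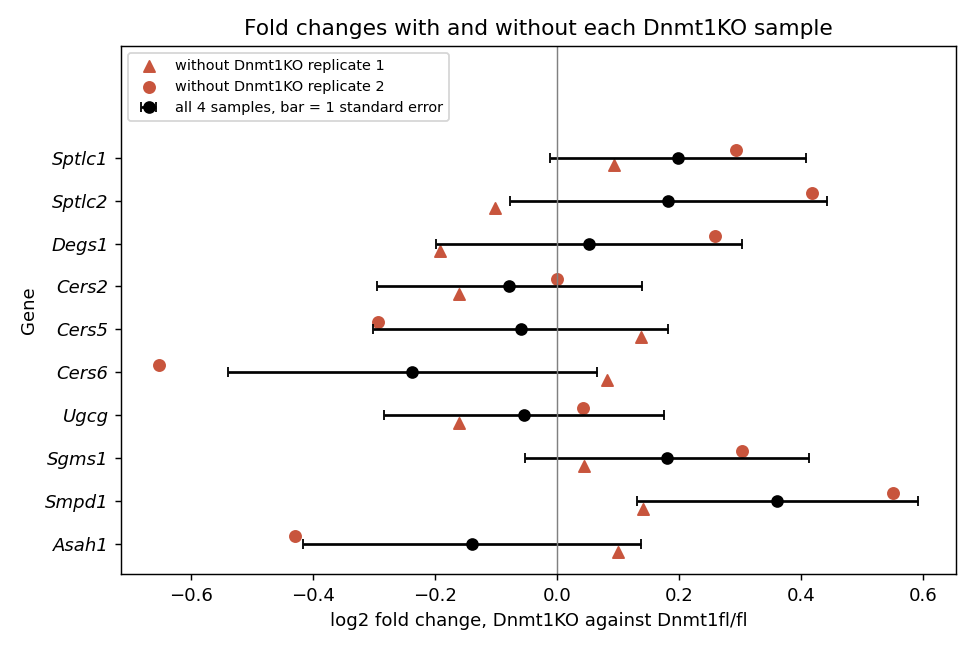
Log2 fold change of the 10 enzymes, Dnmt1KO against Dnmt1fl/fl, with 1 standard error from edgeR (black), and the same value without Dnmt1KO replicate 1 (triangles) or without Dnmt1KO replicate 2 (circles). Without Dnmt1KO replicate 1 the values of Sptlc2, Degs1, Cers5, Cers6 and Asah1 lie on the other side of 0. Without Dnmt1KO replicate 2 that of Ugcg does. Sptlc1, Sgms1 and Smpd1 lie above 0 in all 3 fits.

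The levels of the enzymes were compared with each other per kilobase of exon, as the mean ± SD over the 4 samples. Asah1 was highest, at 157 ± 25.5 CPM per kb, followed by Degs1 at 95.4 ± 12.5 and Cers2 at 62.2 ± 3.48. The next 4 genes lay close together, with Cers5 at 21.3 ± 2.59, Cers6 at 20.04 ± 4.21, Sptlc2 at 17.9 ± 3.07 and Sptlc1 at 17.9 ± 1.79 CPM per kb. The ranges of mean ± SD overlapped between neighbours in this group, without pairing by sample. Within samples, Cers6 had 22.0 and 21.4 CPM per kb in Dnmt1fl/fl and 13.8 and 23.0 in Dnmt1KO. Sptlc2 had 16.4 and 17.1, then 22.4 and 15.7, so their order was reversed in Dnmt1KO replicate 1 alone. Smpd1 at 10.7 ± 2.07, Ugcg at 10.5 ± 1.18 and Sgms1 at 9.31 ± 1.16 CPM per kb formed the lowest group, and their ranges overlapped too. All 10 lay above the median of the tested genes, 5.10 CPM per kb. With the longest transcript in place of all exons, Sgms1 moved from place 10 to place 7, and the first 5 places were the same.

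**Figure D3:**
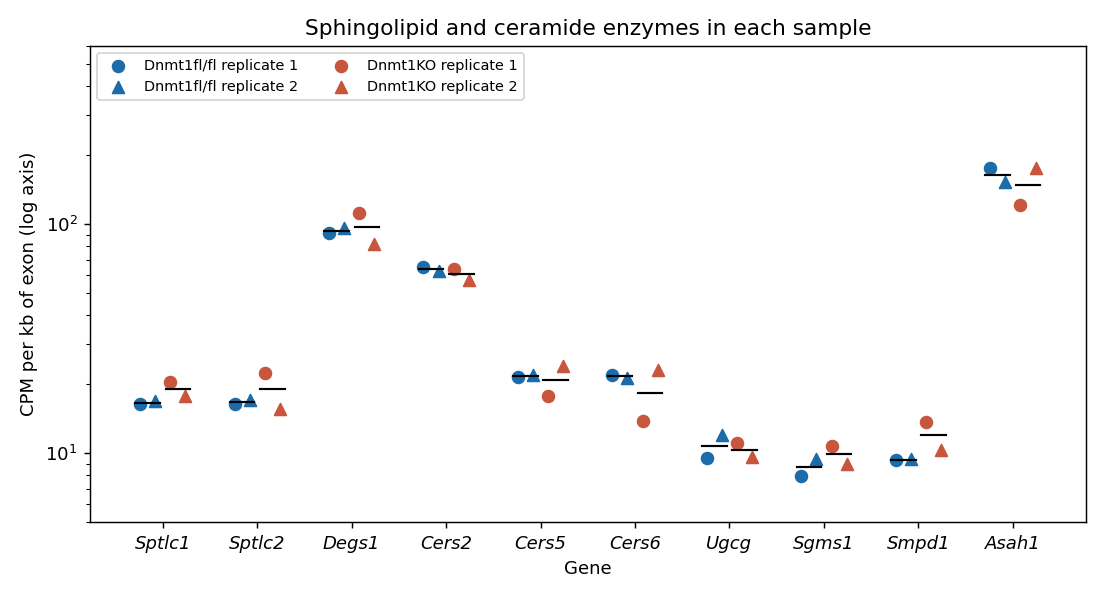
Level of each enzyme (CPM per kb of exon, log axis) in the 4 samples, with colour for genotype, symbol for replicate number and a black line at each genotype's mean. Asah1 is the most abundant enzyme in every sample, and Cers6 is lowest in Dnmt1KO replicate 1, at 13.8 CPM per kb.

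The other genes of the pathway were read from 8 lists. Of 92 symbols, 77 were listed and 73 were tested; none passed adjusted p under 0.05 in edgeR, DESeq2 or limma-voom, and 0 had an unadjusted p under 0.05 with any of these tools; the lowest in edgeR was 0.170. Their median log2 fold change was 0.08, against 0.00 over all genes tested, and single values ran from −0.96 to 0.40. Both Dnmt1KO samples were higher for 12 of 73 genes (16.4%, against 8.14% of all tested genes) and lower for 4 (5.48%, against 8.56%). Without Dnmt1KO replicate 1, the median was −0.02, and the remaining Dnmt1KO sample lay above both Dnmt1fl/fl samples for 23 genes (31.5%, against 32.6% of all tested genes) and below both for 22 (30.1%, against 32%). The sign of the fold change differed between these fits for 27 of the 73 genes (37.0%), against 50.1% of all tested genes. The counts of genes without overlap in single lists below are read against the same shares of all tested genes, 8.14% higher and 8.56% lower.

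Partners of serine palmitoyltransferase showed small differences. Sptssa, its small activating subunit, had 94.1 and 98.8 CPM in the Dnmt1fl/fl samples and 109 and 101 CPM in the Dnmt1KO samples. Ormdl1, Ormdl2 and Ormdl3, which restrain the enzyme, had log2 fold changes of 0.09 ± 0.23, 0.06 ± 0.26 and 0.02 ± 0.22, and Kdsr, which reduces its product, −0.14 ± 0.26. Without Dnmt1KO replicate 1 these became −0.10, −0.19, −0.04 and 0.02. Of the 13 other symbols on the de novo synthesis list, 8 were in the table and all 8 were tested. Sptssa was the single one whose genotypes did not overlap. Sptlc3 and Sptssb were not in the table.

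Around sphingomyelin, Col4a3bp, the older symbol of Cert1 for the ceramide transfer protein, had 157 and 141 CPM in the Dnmt1fl/fl samples and 125 and 163 CPM in the Dnmt1KO samples. Sgms2, the plasma membrane sphingomyelin synthase, had 44.4, 87.9, 71.3 and 57.5 CPM in the same order. The Dnmt1fl/fl samples alone spanned the whole range of Sgms2, and the genotypes of both genes overlapped. The neutral sphingomyelinases Smpd2 and Smpd4 had log2 fold changes of 0.13 ± 0.23 and −0.31 ± 0.27, and 0.04 and −0.08 without Dnmt1KO replicate 1; Smpd2 was the single gene without overlap of the 6 tested for sphingomyelin breakdown, and was higher. Smpd3, a further neutral sphingomyelinase named here after its values were seen, had the lowest unadjusted p of the 73 genes. Its levels were 19.9 and 5.98 CPM in the Dnmt1fl/fl samples and 4.999 and 8.22 CPM in the Dnmt1KO samples. The high value came from Dnmt1fl/fl replicate 1 alone, and the genotypes overlapped. A log2 fold change of −0.96 ± 0.61 was found (edgeR adjusted p = 1.00), with 0.15 without Dnmt1fl/fl replicate 1 and −0.65 without Dnmt1KO replicate 1. Gltp, a glycolipid transfer protein and the single gene without overlap of the 8 tested for sphingomyelin synthesis and ceramide transfer, had 303 and 247 CPM in the Dnmt1fl/fl samples and 351 and 323 CPM in the Dnmt1KO samples.

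The list for glycosphingolipid breakdown had the most genes without overlap, 5 of 14 tested, all higher in Dnmt1KO. Gm2a, Neu3, Hexa and Scarb2 were among them. The median log2 fold change of this list was 0.17, against 0.00 over all genes tested, and 0.08 without Dnmt1KO replicate 1. Gm2a, the GM2 activator protein, had 508 and 533 CPM in the Dnmt1fl/fl samples and 733 and 554 CPM in the Dnmt1KO samples, and its log2 fold change of 0.30 ± 0.25 was 0.09 without Dnmt1KO replicate 1. Gm2a was thus highest in the library that stood apart, like Smpd1. Neu3, a sialidase, was near the lower end of the table at 1.51, 1.59, 1.72 and 1.95 CPM. Psap, the precursor of the saposins that hydrolases need as cofactors, had 22022, 15898, 26340 and 20512 CPM, with overlapping genotypes.

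Of the 4 other ceramide breakdown genes tested, Naaa was higher in both Dnmt1KO samples, and of 7 other glycosphingolipid synthesis genes tested, St3gal5 was higher and B4galt5 lower. Naaa, an acid amidase related to Asah1, had 210 and 272 CPM in the Dnmt1fl/fl samples and 298 and 291 CPM in the Dnmt1KO samples, and its log2 fold change of 0.29 ± 0.24 was 0.27 without Dnmt1KO replicate 1, 0.12 without Dnmt1fl/fl replicate 1 and 0.49 without Dnmt1fl/fl replicate 2. Acer3, an alkaline ceramidase, had a log2 fold change of −0.07 ± 0.23, or 0.07 without Dnmt1KO replicate 1. B4galt5, which makes lactosylceramide from the product of Ugcg, had 276 and 283 CPM in the Dnmt1fl/fl samples and 232 and 243 CPM in the Dnmt1KO samples. Its log2 fold change was −0.24 ± 0.21 and −0.21 without Dnmt1KO replicate 1. For Naaa and B4galt5, both Dnmt1KO samples were alike, but this was not particular to them. Among other genes without overlap, the Dnmt1KO samples had 56.9 and 58.4 CPM of St3gal5, 1571 and 1584 CPM of Hexa, and 73.5 and 71.7 CPM of Acbd3.

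Sphingosine is phosphorylated to sphingosine 1-phosphate, and of the 15 genes tested for its handling, Plpp2 and Sphk2 were higher and Spns2 and Aldh3a2 lower in both Dnmt1KO samples, against 8.14% and 8.56% of all tested genes. Sphk1, the inducible kinase, had 4.68 and 5.82 CPM in the Dnmt1fl/fl samples and 11.3 and 2.63 CPM in the Dnmt1KO samples, and its log2 fold change of 0.40 ± 0.67 became −1.001 without Dnmt1KO replicate 1 and 1.10 without Dnmt1KO replicate 2; it was −0.006 with limma-voom and 0.07 with the replicate block. Sphk2 had 67.2 and 63.9 CPM in the Dnmt1fl/fl samples and 84.8 and 67.4 CPM in the Dnmt1KO samples. The Dnmt1KO samples thus spanned all Sphk1 values, whereas Sphk2 did not overlap between genotypes; its log2 fold change of 0.22 ± 0.23 was 0.04 without Dnmt1KO replicate 1. Sgpl1, the lyase that ends the pathway, had a log2 fold change of 0.10 ± 0.24, or 0.14 without Dnmt1KO replicate 1, 0.27 without Dnmt1fl/fl replicate 1 and −0.04 without Dnmt1fl/fl replicate 2. Plpp2, a lipid phosphatase, had 11.9, 13.2, 18.5 and 13.6 CPM. Spns2, the sphingosine 1-phosphate exporter, was near the lower end of the table at 2.09, 1.71, 1.06 and 1.40 CPM. Spns2 was lower in both Dnmt1KO samples, with a log2 fold change of −0.62 ± 0.47, or −0.44 without Dnmt1KO replicate 1, and that of Plpp2 was 0.35 ± 0.28, or 0.10. Of the acyl supply genes, 11 tested, Acbd3 was the single one whose genotypes did not overlap, and it was lower in Dnmt1KO. The median log2 fold change of these 11 genes was 0.03 and became −0.12 without Dnmt1KO replicate 1. In the remaining Dnmt1KO sample, 0 of the 11 lay above both Dnmt1fl/fl samples, against 32.6% of all tested genes, and 8 (72.7%) below both, against 32%; the sign of the fold change differed between the fits for 8 (72.7%), against 50.1%. In the same sample and against the same shares, genes above and below both Dnmt1fl/fl samples were 4 and 0 of 4 for ceramide breakdown. Some of these margins were small. Acer3 had 133 CPM there, against 125 and 129 CPM in the Dnmt1fl/fl samples, and Asah2 24.6, against 23.0 and 16.9. Acer2 was low, with 0.847 CPM against 0.585 and 0.558. For glycosphingolipid breakdown, the genes above and below were 8 and 3 of 14. They were 2 and 0 of 8 for sphingomyelin synthesis and ceramide transfer, 2 and 3 of 8 for de novo synthesis and 1 and 2 of 6 for sphingomyelin breakdown. For glycosphingolipid synthesis they were 2 and 2 of 7, and for sphingosine 1-phosphate handling 4 and 4 of 15. The medians of the other lists also moved without this library, from 0.08 to −0.01 for de novo synthesis, from 0.17 to 0.05 for sphingomyelin synthesis and ceramide transfer, from −0.06 to −0.30 for sphingomyelin breakdown, from 0.06 to 0.28 for ceramide breakdown, from −0.09 to −0.02 for glycosphingolipid synthesis and from 0.04 to −0.03 for sphingosine 1-phosphate handling.

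The promoters of the enzymes were read from RefSeq (GRCm38.p6) as windows of 300 bases around each start, since Dnmt1 acts on the dinucleotide CG. Windows were matched by symbol for 9 of the 10 enzymes, 13 windows in all; Asah1 was not matched. CG, the same on both strands, was counted in each. The 13 windows held between 4 and 53 CG with a median of 21, against a median of 20 over 12570 windows of tested genes and 7 over all 32851 windows, 94.6% of which hold at least 1. Methylation itself was not measured in these samples. The windows of Sptlc1 (minus strand, chr13:53377312-53377611, 25 CG) and Smpd1 (plus strand, chr7:105554110-105554409, 16 CG) are shown because these are the 2 enzymes whose genotypes did not overlap; capitals mark each CG, and the order is 5′ to 3′ on the gene's strand.
Sptlc1: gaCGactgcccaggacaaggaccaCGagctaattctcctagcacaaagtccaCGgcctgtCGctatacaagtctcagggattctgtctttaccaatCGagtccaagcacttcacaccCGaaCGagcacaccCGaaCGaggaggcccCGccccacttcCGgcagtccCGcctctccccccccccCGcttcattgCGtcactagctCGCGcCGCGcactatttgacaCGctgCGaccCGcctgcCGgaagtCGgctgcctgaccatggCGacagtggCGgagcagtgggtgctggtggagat
Smpd1: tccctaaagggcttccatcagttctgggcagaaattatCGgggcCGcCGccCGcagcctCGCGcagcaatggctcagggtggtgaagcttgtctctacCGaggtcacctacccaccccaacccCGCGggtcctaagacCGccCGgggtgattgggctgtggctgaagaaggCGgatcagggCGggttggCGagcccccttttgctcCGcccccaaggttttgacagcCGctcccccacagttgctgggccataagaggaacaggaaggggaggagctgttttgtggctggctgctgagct
Fewer CG than in the Sptlc1 window were found in 81.6% of all windows, and fewer than in the Smpd1 window in 67.0%. The window with the most CG among the enzymes was that of Ugcg, with 53.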

How the data were processed

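The estimated counts per gene that the authors deposited for 4 samples are not normalized and not all whole; they were rounded. The submitters' processing notes name HISAT2 2.0.5, featureCounts 1.5.0-p3, DESeq2 1.20.0 and build mm10. The annotation is not given in the sources used here. A second table, whose 2749 genes repeat values of the first, was not used. Genotypes were compared with the two-sided quasi-likelihood test of edgeR 4.0.16 in R 4.3.3, after filterByExpr and TMM; p-values were adjusted by Benjamini-Hochberg over all genes tested. The script was tested on simulated data. A level of 0.120 to 0.151 CPM corresponds to 3 counts and covers counting error only. Exon lengths and gene positions came from GENCODE M21 (GRCm38), and at most 0.0749% of the 100-base stretches of any enzyme's exons occurred in another gene. DESeq2 1.42.0, voom from limma 3.58.1, other scalings and filters, unrounded values, a replicate block, a length trend and leaving out each sample served as alternatives. Named genes were the 10 enzymes, Dnmt1, direct partners, pathway genes past the threshold and, among pathway genes without overlap, the 8 with the largest absolute log2 fold change; Smpd3, Hexa, Scarb2, St3gal5, Aldh3a2 and Acbd3 were named after their values were seen. One gene that this rule takes is not reported here. The enzymes and lists were chosen with earlier results of these data known.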

Additional observations from a re-analysis of the deposited data

How the results depend on the processing

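The count of 0 genes past the threshold became 1 with DESeq2 and was 0 under limma-voom, both other scalings, both other filters, unrounded values, removal of the length trend and the replicate block. Leaving out 1 sample gave 0 to 1061 genes: 2 without Dnmt1fl/fl replicate 1, 10 without Dnmt1fl/fl replicate 2, 0 without Dnmt1KO replicate 1 and 1061 without Dnmt1KO replicate 2, where the lone sample of a genotype is assumed to vary like the pair; the cause was not tested. Of the 10 enzymes, 0 passed in each of these fits (0 to 0 when leaving out 1 sample).

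The labels number the samples of each genotype but name no pairing, and the deviations of same-numbered samples from their genotype means correlated at −0.348 across genes. The replicate block gave 0 genes and 0 enzymes, also with the length trend removed, and changed no call. A crossed pairing, chosen after seeing the data, gave 3 genes and 0 enzymes.

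The count of 2 enzymes without overlap was 2 with RLE scaling, 2 with the length trend removed and 3 with library totals alone, where Cers2 was lower. Without Dnmt1KO replicate 1 or 2, additions chosen after seeing the data, 8 and 8 enzymes lay outside the Dnmt1fl/fl range in the remaining Dnmt1KO sample, against 32.6% above and 32% below of all tested genes without replicate 1, and 41% and 41.9% without replicate 2. Degs1 reversed to −0.033 with library totals alone, and Ugcg to 0.028 with the length trend removed, or 0.025 with the replicate block as well; the cause was not tested. Without a change of sign, removing the length trend moved Sptlc2 from 0.18 to 0.33, Sgms1 from 0.18 to 0.34, Cers6 from −0.24 to −0.16 and Degs1 from 0.05 to 0.01, and library totals alone moved Sptlc1 from 0.20 to 0.12, Sptlc2 to 0.095, Sgms1 to 0.10, Cers2 from −0.08 to −0.15, Cers5 from −0.06 to −0.12 and Ugcg from −0.05 to −0.13. Leaving out 1 sample gave log2 fold changes of −0.10 to 0.42 for Sptlc2, −0.19 to 0.26 for Degs1, −0.29 to 0.14 for Cers5, −0.65 to 0.083 for Cers6, −0.21 to 0.13 for Ugcg and −0.43 to 0.10 for Asah1, so each changed sign. Sptlc1, Sgms1 and Smpd1 stayed above 0 (0.05 to 0.55), Cers2 between −0.16 and 0.00, and Dnmt1 between −1.12 and −0.75.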
